A study of Mus musculus with 8 samples.

Results

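Transcripts of 9 immediate-early genes were measured in the mouse suprachiasmatic nucleus (SCN), the circadian pacemaker of the hypothalamus. They were the zinc-finger factors Egr1, Egr2 and Egr3, the orphan nuclear receptors Nr4a1, Nr4a2 and Nr4a3, and Arc, Btg2 and Ier2, chosen by name as known activity-induced genes and found as 9 of the 20741 rows of the gene table. The mice were of the strain C57/BL6, had no stated mutation or drug, were entrained to a light-dark cycle and were then kept in constant darkness, and their age is not given in the labels. RNA of 3 mice was pooled for each library, and 1 library was made every 6 h over 2 days, 8 in all, from polyadenylated RNA with a kit that keeps strand. The design has no replicate at any hour, so libraries taken 24 h apart were set together as a group of 2 at each circadian time (CT). CT4 and CT10 fall in subjective day, while CT16 and CT22 are subjective night. Libraries titled 22 to 40 h, the first cycle, are called replicate 1, and those titled 46 to 64 h, the second cycle, replicate 2. The labels give a start of collection earlier than the first title, and all times here rest on the titles. The p-values therefore measure spread between pools, not between mice, and a difference between cycles is part of that spread.

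Immediate-early genes are transcribed within minutes of calcium, cAMP or growth factor signals, without new protein synthesis, through factors such as CREB and SRF that are already in the cell. EGR and NR4A proteins then bind promoters of later genes, whereas Arc acts at synapses. In the SCN such genes are best known for their induction by light during the night, which these animals did not receive during collection. Their transcripts are short-lived, so a level reflects the signals of the time just before the tissue was taken.

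All libraries had nearly the same depth, from 11123610 to 11131890 sense-strand gene reads, as the tables had been equalised before deposit. Levels are given as CPM, read counts divided by the TMM-scaled library size. All 10 SCN neuron markers had reads in every library (773 to 1412 CPM in sum), as the tissue label states. The libraries also held other cells in unequal amounts. Oligodendrocyte markers (12 genes, none at 0) summed to 5112 CPM in CT4 replicate 1 and to 15983 CPM in CT16 replicate 2, and meningeal markers (8 genes, none at 0) summed to 288 CPM in CT4 replicate 1, against 1115 to 2222 CPM in the 7 others. Telencephalic neuron markers (10 genes, with Emx1 and Neurod2 at 0 in at least 1 library) summed to 254 to 348 CPM. In bulk tissue, fewer cells of a type and less RNA per cell cannot be told apart.

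Btg2 and Egr1 had the highest levels of the 9 genes per length of transcript, and Egr2 and Egr3 were close to the limit of counting. Per kb of annotated exon, Btg2 averaged 7.21 ± 1.51 CPM, Egr1 5.47 ± 1.87, Nr4a1 4.07 ± 1.49, Nr4a3 3.60 ± 0.986 and Arc 3.49 ± 1.02 (SD over the 8 libraries). Nr4a2 averaged 1.45 ± 0.250 and Ier2 1.37 ± 0.896, while Egr2 averaged 0.158 ± 0.115 and Egr3 0.120 ± 0.0872 CPM per kb. Neighbours in this order overlapped over the libraries, except that the lowest Arc value (2.60 CPM per kb) lay above the highest of Nr4a2 (1.71), and the lowest of Ier2 (0.600) above the highest of Egr2 (0.370). Of the genes tested, 44.0% had a higher level per kb than Btg2 and 99.2% a higher one than Egr3. The exon lengths came from a different annotation than the gene rows. For Egr1 and Egr3 they (4484 and 4406 bases) exceed the whole spans of the rows (4088 and 2854 bases), introns included. Levels per kb of these genes may thus be too low, and the order of Btg2 and Egr1, and of Egr2 and Egr3, is not settled. Egr2, with 1 to 14 reads per library, did not reach the minimum of 10 reads in at least 2 libraries, which left 8 of the 9 genes to test. Egr3 passed through CT22 replicate 1, CT4 replicate 1 and CT10 replicate 2, with 12, 10 and 11 reads against 2 or 3 reads in each other library, so its spread below is partly set by that filter.

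The main feature of the group was a difference between libraries of the same circadian time. Egr1, Egr3, Nr4a1, Arc and Ier2 were all highest in the same pair of libraries, CT22 replicate 1 and CT10 replicate 2, at different circadian times and in different cycles. Their counterparts 24 h away, CT22 replicate 2 and CT10 replicate 1, did not share these high values. Of the 15217 genes tested, 3.70% had this pair as their highest, against 5 of the 8 tested immediate-early genes. Both ratios, CT22 replicate 1 over replicate 2 and CT10 replicate 2 over replicate 1, were at least 1.3 in the same 5 genes and in 3.25% of all genes tested. Egr3 passed the filter on low counts through the libraries where it is high, so its place in both counts was partly set by that filter, and without it 4 of 7 genes remain. This pattern was noticed in these values and then counted, so the counts describe it and carry no test.

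**Figure D1:**
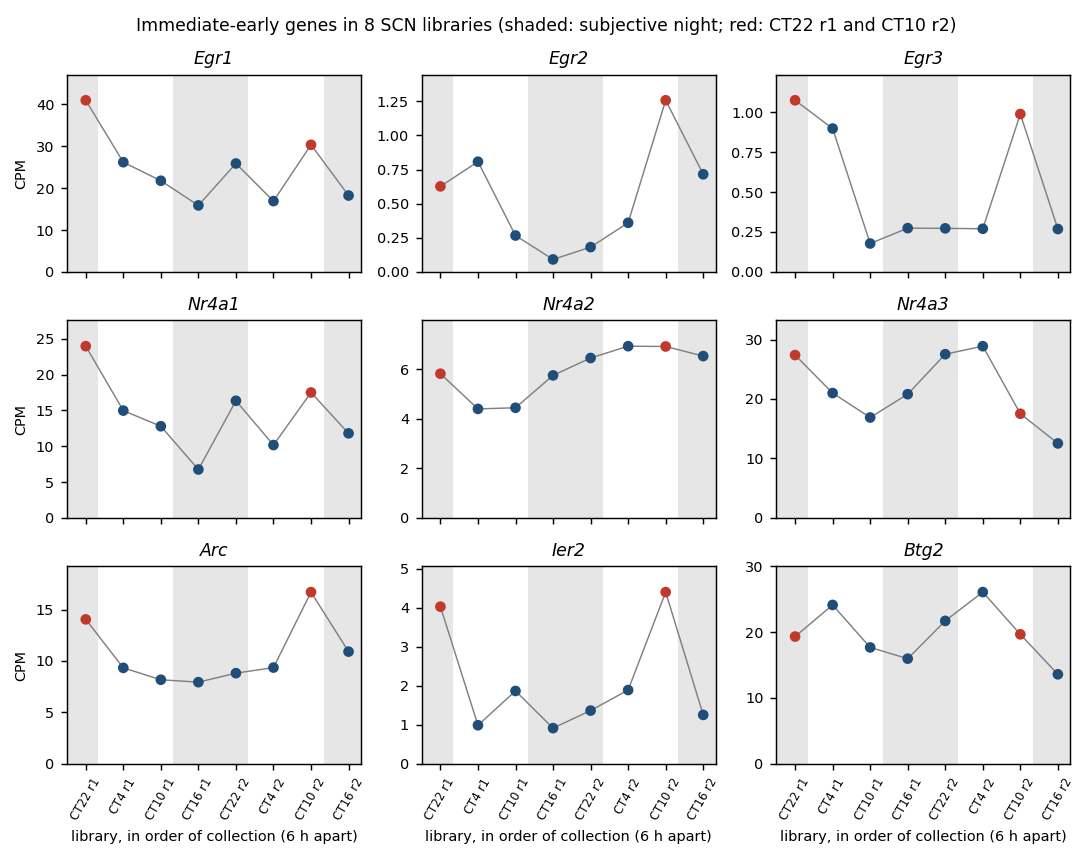
CPM (vertical axis, from 0) of each gene in each library (points), in order of collection along the horizontal axis. Red points are CT22 replicate 1 and CT10 replicate 2, and they are the highest pair for Egr1, Egr3, Nr4a1, Arc and Ier2, while Btg2 is highest at CT4 and lowest at CT16 in both cycles.

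Egr1 (ENSMUSG00000038418), whose zinc-finger protein is a common marker of neuronal activity, had 41.0, 26.2, 21.8, 15.9, 25.9, 16.9, 30.4 and 18.2 CPM in the libraries from 22 to 64 h. Its ratio of CT22 replicate 1 over replicate 2 was 1.58 (458 against 285 reads, with a 95% counting interval of 1.36 to 1.84). Its ratio of CT10 replicate 2 over replicate 1 was 1.39 (338 against 245 reads, interval 1.18 to 1.65). Both intervals exclude equal levels and cover counting error only. At CT4, as at CT22, the first cycle was the higher one, with replicate 2 at 0.646 times replicate 1.

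Nr4a1 (ENSMUSG00000023034, mm9 chromosome 15, 101097265-101105302), an orphan receptor that binds DNA as a monomer or dimer, had 23.99, 14.98, 12.79, 6.75, 16.36, 10.17, 17.51 and 11.80 CPM in the same order. CT22 replicate 1 was 1.47 times replicate 2 and CT10 replicate 2 was 1.37 times replicate 1. The other circadian times differed as well. At CT16 replicate 2 was 1.75 times replicate 1 (132 against 74 reads, interval 1.31 to 2.36), the largest of these ratios. At CT4 replicate 2 was 0.679 times replicate 1 (interval 0.530 to 0.867). Its profile ran with that of Egr1 from library to library (Pearson r of 0.95 over the 8 libraries and 0.91 without CT22 replicate 1 and CT10 replicate 2). All such correlations share libraries and scaling and are given as descriptions.

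Arc (ENSMUSG00000022602, mm9 chromosome 15, 74499422-74503200), whose protein forms capsid-like particles and controls the turnover of synaptic glutamate receptors, had 14.1, 9.33, 8.17, 7.94, 8.81, 9.36, 16.7 and 10.9 CPM. CT10 replicate 2 was 2.04 times replicate 1 (186 against 92 reads, interval 1.58 to 2.65), and CT22 replicate 1 was 1.59 times replicate 2. The other 6 libraries lay within 7.94 to 10.9 CPM, with CT16 replicate 2 at 1.37 times replicate 1 (interval 1.04 to 1.83). Ier2, a small nuclear protein of serum-stimulated cells, had 4.03, 0.987, 1.87, 0.913, 1.36, 1.89, 4.40 and 1.25 CPM, so that no other library came near CT22 replicate 1 and CT10 replicate 2. The CT22 ratio of Ier2 was 2.95 (45 against 15 reads) and the CT10 ratio 2.36 (49 against 21 reads). At CT4 its replicate 2 was 1.91 times replicate 1, with an interval of 0.882 to 4.40 that includes equal levels. The r of Arc with Ier2 was 0.84 over the 8 libraries and 0.02 without this pair.

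Egr3, which shares its DNA site with Egr1, had 12 and 11 reads in CT22 replicate 1 and CT10 replicate 2, and 10, 2, 3, 3, 3 and 3 reads in CT4 replicate 1, CT10 replicate 1, CT16 replicate 1, CT22 replicate 2, CT4 replicate 2 and CT16 replicate 2. Egr2, known for its role in Schwann cell myelination, had 7, 9, 3, 1, 2, 4, 14 and 8 reads in order of collection. CT10 replicate 2 was again its highest library, but CT22 replicate 1 was only the fourth. With these few reads the CT22 ratio of Egr2 (7 against 2 reads) has an interval of 0.656 to 34.01, so a difference at CT22 was not detectable at this depth.

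**Figure D2:**
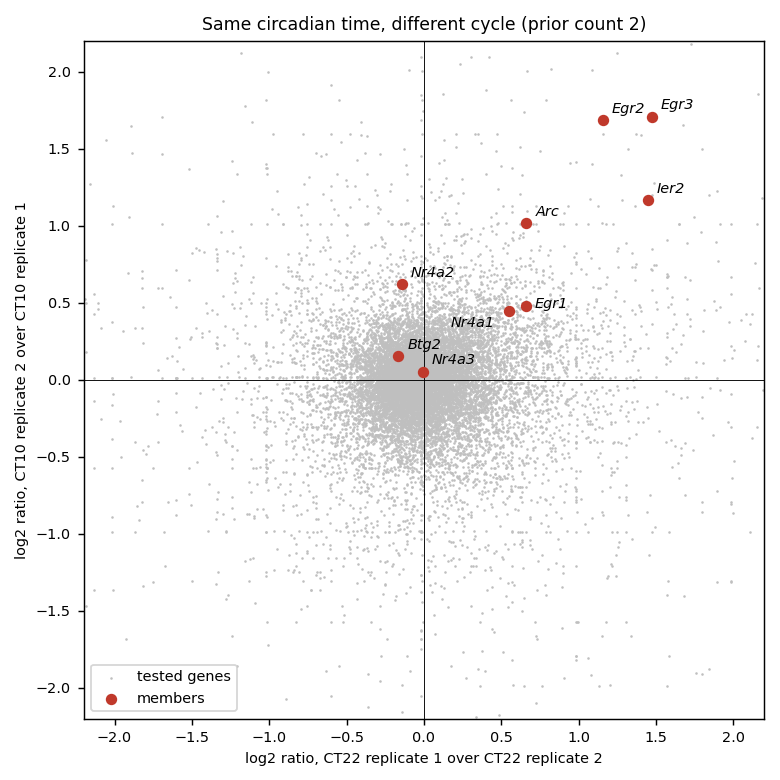
Log2 ratios between libraries of the same circadian time: CT22 replicate 1 over replicate 2 on the horizontal axis, CT10 replicate 2 over replicate 1 on the vertical axis. Grey points are tested genes within the axes and red points are the 9 immediate-early genes, of which 6 lie in the upper right, while Nr4a2, Nr4a3 and Btg2 lie near or left of 0 on the horizontal axis.

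The spread that remained after fitting circadian time was wide in these genes. The residual SD on the log2 scale was 0.91 for Ier2, 0.84 for Egr3, 0.58 for Nr4a1, 0.51 for Egr1 and 0.45 for Arc, against a median of 0.19 over all genes tested. These SDs include counting error, which weighs most on genes with few reads, here Egr3 (2 to 12 per library) and Ier2 (10 to 49). Nr4a2 had 0.29, Nr4a3 0.28 and Btg2 0.11. Btg2 was thus less variable around its fit than the median gene, and 83.9% of genes tested had a larger residual SD.

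The telencephalic neuron markers moved partly with this pattern. Their score was the mean centred log2 CPM of the list. It was 0.65 in CT22 replicate 1, 0.25 in CT10 replicate 2 and 0.73 in CT4 replicate 1, and 0.10 or lower in each other library. In summed CPM the list had 347 in CT22 replicate 1 against 254 in replicate 2. At CT10 the sum was 340 in replicate 2 against 343 in replicate 1, the other way from the score. In CT4 replicate 1, where the score was highest, Egr1 had 26.2 CPM, its highest value after the pair, and Nr4a1 had 14.98 CPM, below the pair and CT22 replicate 2. In the same library Arc had 9.33 CPM and Ier2 0.987 CPM, both below the highest pair and within the range of the other 5 libraries. Egr3 had 10 reads there. The part of these cells in the 5 genes' high libraries was not tested. SCN neurons scored 0.13 in CT22 replicate 1 against 0.57 in replicate 2, and -0.11 in CT10 replicate 2 against -0.23 in replicate 1. Oligodendrocytes scored -0.03 against 0.08 at CT22 and 0.35 against 0.59 at CT10, in the same order.

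**Figure D3:**
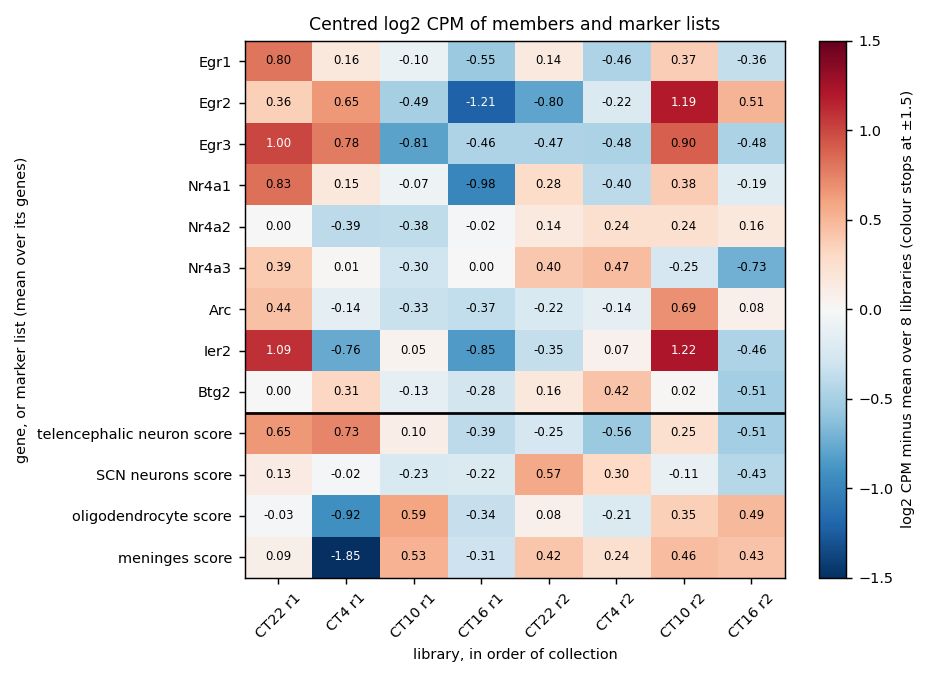
Log2 CPM (prior count 2) minus its mean over the 8 libraries for each gene (upper rows) and for 4 marker lists, averaged over their genes (lower rows), with libraries in order of collection. Ier2 reaches 1.09 in CT22 replicate 1 and 1.22 in CT10 replicate 2, and the telencephalic neuron score is 0.65 and 0.25 in these libraries.

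Circadian time was then tested with a 24-h cosine of free phase over all 15217 genes. Btg2 and Nr4a3 had the clearest daily profiles of the 8 genes, both high around subjective dawn and low around dusk, but neither passed with adjustment over all genes. By edgeR's quasi-likelihood test 0 of 8 had an adjusted p under 0.05, where 17 of all genes (0.112%) did. Btg2 and Nr4a3, 2 of 8, had an unadjusted p under 0.05, as did 1308 of all genes (8.60%). No member passed for day against night (0.105% of all genes, 0.0723% higher and 0.0329% lower by day), for dusk against dawn (0.0197%) or for the second cycle against the first (0 genes, with 543 at an unadjusted p under 0.05 and 0 by DESeq2).

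Btg2 (ENSMUSG00000020423, mm9 chromosome 1, 135971494-135975717) encodes an antiproliferative cofactor that recruits the CCR4-NOT deadenylase to mRNAs. It had 24.1 and 26.1 CPM at CT4, 17.7 and 19.7 at CT10, 15.97 and 13.59 at CT16 and 19.3 and 21.7 at CT22 (replicate 1 and replicate 2). It was the only one of the 8 genes with the same highest (CT4) and lowest (CT16) time in both cycles, as 11.2% of all genes tested had. The fitted peak-to-trough ratio was 1.71 (log2 0.78 ± 0.18 SE), with a peak at CT3.33 ± 0.904 h (adjusted p = 0.319 by edgeR). At dusk (CT10 and CT16) it was at 0.732 times its level at dawn (CT22 and CT4), with an adjusted p of 0.403 by edgeR, and by day at 1.24 times its level by night (adjusted p = 0.572). Over all alternatives of scaling, filter, tool, covariate and left-out libraries the log2 ratio of Btg2 stayed between 0.68 and 0.87. The authors' deposited table, from a JTK rhythm test, gives Btg2 an adjusted p of 0.0565, the lowest of the 9 genes, but a q-value of 1, as for each of the others. The lag given there is 5.5 h. The hour from which it is counted was not established, so it is not a circadian time to set against the fitted peak.

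Nr4a3 (ENSMUSG00000028341, mm9 chromosome 4, 48057969-48099653), the third receptor of its family, had 16.9 and 17.5 CPM at CT10 and 20.8 and 12.5 at CT16, against 27.4 and 27.5 at CT22 and 21.0 and 28.9 at CT4. All 4 dusk libraries lay below all 4 dawn libraries, by a small margin between CT16 replicate 1 and CT4 replicate 1. Of the 8 genes only Nr4a3 was so ordered, as were 1.95% of all genes tested. Its dusk level was 0.647 times the dawn level (log2 -0.63 ± 0.16 SE, adjusted p = 0.363 by edgeR). The fitted ratio of the rhythm was 1.86 (log2 0.89 ± 0.23 SE) with a peak at CT0.699 ± 0.979 h and an adjusted p of 0.380 by edgeR. With no filter on low counts Nr4a3 passed both tests (adjusted p = 0.0124 for the rhythm and 0.00478 for dusk against dawn), as did 362 and 239 genes in all, against 17 and 3 with the filter. In the authors' deposited table the JTK adjusted p of Nr4a3 is 0.715, and that of the 7 other genes is 1.

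Reads in the introns of Nr4a3 had the same order. They numbered 2 and 0 at CT10 and 2 and 2 at CT16, against 7 and 14 at CT22 and 7 and 19 at CT4, that is 6 reads at dusk and 47 at dawn. The fitted peak was at CT0.973 (adjusted p = 0.278 by edgeR over 14131 genes, of which 35, or 0.248%, passed). The sum had 10 reads or more only in CT22 replicate 2 and CT4 replicate 2, so the filter alone required it to be high at dawn, and without either library it could not be tested. Of all genes with tested introns 3.47% had every dusk library below every dawn library. Intron reads lie close to each other within a library: all 8 reads of the second intron were in CT4 replicate 2. Junction reads of Nr4a3 were few and did not follow: 13, 16, 16 and 8 at dusk (CT10 and CT16, replicate 1 and then replicate 2) and 13, 2, 12 and 9 at dawn (CT22 and CT4, in the same way).

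**Figure D4:**
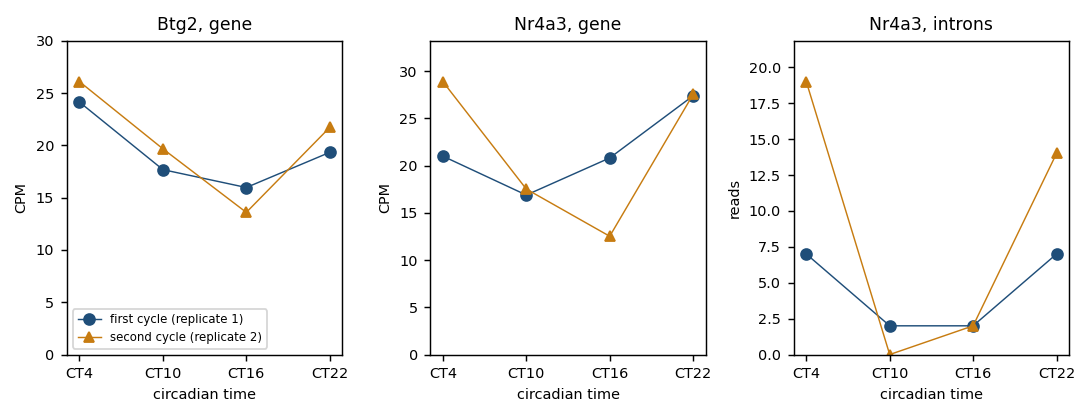
CPM of Btg2 and Nr4a3 and intron reads of Nr4a3 (vertical axes, from 0) at the 4 circadian times, with the first cycle as circles and the second as triangles. Btg2 is highest at CT4 and lowest at CT16 in both cycles, and Nr4a3 has 12.5 to 20.8 CPM at CT10 and CT16, against 21.0 to 28.9 CPM at CT22 and CT4.

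Btg2 and Nr4a3 ran together over the 8 libraries (r of 0.75, and 0.84 without CT22 replicate 1 and CT10 replicate 2), apart from Egr1 and Nr4a1 (r of 0.23 and 0.26 for Btg2, and of 0.26 and 0.20 for Nr4a3). Egr1 and Nr4a1 had dusk levels of 0.786 and 0.747 times their dawn levels, with an adjusted p by edgeR of 0.747 and 0.730. With the telencephalic neuron score as a term, their log2 dusk-dawn differences were -0.09 and -0.19, against -0.35 and -0.42 without it, while that of Nr4a3 was -0.66 and that of Btg2 -0.47. With the oligodendrocyte score as a term instead, those of Egr1 and Nr4a1 were -0.56 and -0.83, and those of Nr4a3 and Btg2 were -0.62 and -0.43. Over the 8 genes the median log2 difference of dusk over dawn was -0.38, against 0.01 over all genes tested, and 6 of the 8 were below 0, against 7398 of all 15217.

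Only part of these directions was stable, and Egr3 and Ier2, both below 0 at dusk here, were above 0 under at least 1 alternative. The sign of the dusk-dawn difference stayed the same under every alternative for Egr1, Nr4a1, Nr4a3 and Btg2, 4 of the 8 genes. Its size did not: for Egr1 it ran from -0.60 (without CT4 replicate 2) to -0.09 (without CT22 replicate 1), and for Nr4a1 from -0.83 (oligodendrocyte term) to -0.14 (without CT16 replicate 1). For Nr4a3 it ran from -0.77 to -0.48 and for Btg2 from -0.53 to -0.40. For day against night this held for Btg2 only, and for the second cycle against the first for Nr4a2 only. No direction is given for the other genes on these axes.

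Nr4a2 (ENSMUSG00000026826, mm9 chromosome 2, 56959083-56976431), needed for midbrain dopamine neurons, followed neither profile. It had 5.82, 4.40, 4.44, 5.75, 6.45, 6.93, 6.92 and 6.53 CPM from 22 to 64 h, the narrowest span of the 9 genes at 1.58 times from the lowest to the highest library. Its level in the second cycle was 1.32 times that in the first, but the adjusted p by edgeR was 0.999. Its r with Nr4a1 was -0.01 and with Nr4a3 0.14.

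Start-site sequences were searched for exact matches to known response elements of immediate-early genes. Egr1 was left out of this search beforehand. Windows of 300 bases around the start were found for 5 of the 9 genes in RefSeq (GRCm38.p6), with no entry for Egr3, Arc and Ier2. They are shown for Egr2, which had the widest log2 range, for Nr4a1, the widest of the well-counted genes, and for Nr4a3 and Btg2, chosen after their values were seen for their low p. Capitals mark the cAMP response element (CRE, TGACGTCA) and its half-site TGACG on either strand, so that CGTCA is the half-site of the opposite strand.
Egr2 (chr10:67537619-67537918, plus strand): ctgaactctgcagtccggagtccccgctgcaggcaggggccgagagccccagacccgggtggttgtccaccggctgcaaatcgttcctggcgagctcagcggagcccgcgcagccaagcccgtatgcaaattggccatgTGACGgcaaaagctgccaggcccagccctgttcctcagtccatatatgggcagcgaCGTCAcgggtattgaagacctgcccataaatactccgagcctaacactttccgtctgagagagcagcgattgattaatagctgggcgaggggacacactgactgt
Nr4a1 (chr15:101266596-101266895, plus strand): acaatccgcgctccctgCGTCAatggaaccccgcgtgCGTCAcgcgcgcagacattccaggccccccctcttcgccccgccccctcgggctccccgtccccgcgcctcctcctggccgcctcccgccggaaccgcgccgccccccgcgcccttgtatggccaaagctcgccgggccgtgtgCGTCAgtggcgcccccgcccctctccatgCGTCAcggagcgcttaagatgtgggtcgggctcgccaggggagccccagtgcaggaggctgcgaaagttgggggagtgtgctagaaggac
Nr4a3 (chr4:48045055-48045354, plus strand): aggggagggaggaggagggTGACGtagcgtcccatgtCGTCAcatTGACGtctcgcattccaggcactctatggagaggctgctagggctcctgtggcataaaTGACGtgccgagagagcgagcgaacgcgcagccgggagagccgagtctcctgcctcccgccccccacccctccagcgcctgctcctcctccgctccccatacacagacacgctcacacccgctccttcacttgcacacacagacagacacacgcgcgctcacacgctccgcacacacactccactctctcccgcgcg
Btg2 (chr1:134079106-134079405, minus strand): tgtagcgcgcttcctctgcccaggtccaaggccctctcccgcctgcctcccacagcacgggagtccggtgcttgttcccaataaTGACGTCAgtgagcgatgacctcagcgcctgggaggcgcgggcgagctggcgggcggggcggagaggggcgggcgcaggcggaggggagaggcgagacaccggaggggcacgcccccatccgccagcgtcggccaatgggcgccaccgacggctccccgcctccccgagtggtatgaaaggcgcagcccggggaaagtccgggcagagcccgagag

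The half-site was present in all 5 matched genes, and in 20.9% of 32544 promoters of the same table. A gene was counted if any of its windows held a site, while the shares of all promoters are of single windows. Egr2 had several windows, and those starting at bases 67535249 and 67537316 held no half-site. Nr4a1, Nr4a2 and Nr4a3 had 4 half-sites each, at bases 18, 38, 182 and 211 of the window shown for Nr4a1 and at bases 20, 38, 46 and 104 of that for Nr4a3, counted from the first base printed. Of the 5 genes, Btg2 alone held the full palindrome, at bases 85 to 92, as did 1.80% of all promoters. Its 2 half-site matches lie within that palindrome. The CArG box, the site of SRF, was found in Egr2 only of the 5, at bases 179 to 188 (1.64% of all promoters). The site of EGR proteins, GCGNGGGCG, was found in Nr4a1, Nr4a2 and Btg2 (5.60% of all promoters). The monomer site of NR4A proteins, AAAGGTCA, was in none of the 5 (1.52% of all promoters), and the E-box of clock factors, CACGTG, was found in 1 upstream start of Egr2 only (7.17%). These matches are descriptions of letters in a window. Sites that depart from these patterns, or lie outside the window, were not counted, so a missing match does not show that a gene lacks the element. Genes with either profile carried half-sites, Nr4a1 and Nr4a3 the same number.

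Reads inside introns differed widely between the receptors. Nr4a1 had 660 reads in its 6 introns, which is 121 per kb and 33.2% of the density of its gene reads per kb of exon. Nr4a2 had 141 intron reads (8.23%) and Nr4a3 had 53 reads in its far longer introns (0.472%), against a median of 4.92% over 13779 genes. Of these genes 10.7% had a higher share than Nr4a1 and 89.9% a higher one than Nr4a3. Egr1 (19 reads), Btg2 (19) and Arc (26) had too few intron reads for a profile, and in Egr1 13 of the 19 were in CT4 replicate 1. Ier2 has no intron in the table. The gene and intron tables were equalised separately, so the shares rank genes and are not fractions of unspliced RNA.

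**Figure D5:**
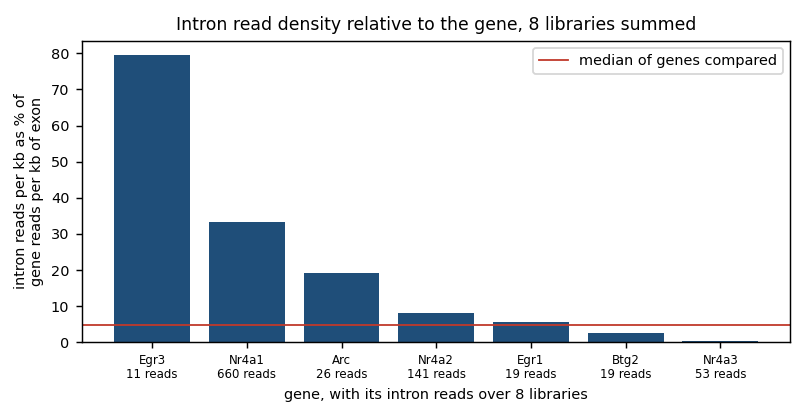
Intron reads per kb of intron as a percentage of gene reads per kb of exon (vertical axis), summed over the 8 libraries, for the 7 genes with a value, with the reads behind each bar. The line is the median of all genes compared, 4.92%, and Nr4a1 stands at 33.2%, while the bar of Egr3 rests on 11 intron reads. Bars of Egr1, Egr3 and Nr4a1 may be too high, as their exon lengths do not match their gene rows.

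The introns of Nr4a1 were highest and lowest in the same libraries as its gene. They had 126, 88, 66, 56, 77, 81, 98 and 68 reads in order of collection, with CT22 replicate 1 and CT10 replicate 2 again the highest and CT16 replicate 1 again the lowest. The 24-h test of these introns had an adjusted p of 0.719 by edgeR. The first intron held 342 of the 660 reads, or 51.8% (exact binomial 95% interval 47.9 to 55.7), and the 6 introns had between 53.2 and 166 reads per kb. Junction reads of Nr4a1 summed to 70 in CT10 replicate 2 and 53 in CT22 replicate 1, with 12 to 42 in the 6 others. Junctions were tested 1 by 1, and 0 of the 5 tested junctions of Nr4a1 and Btg2 passed (adjusted p of 0.9996 by edgeR, where 0.0179% of 78212 junctions passed).

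Splice junctions of Nr4a1 also reached beyond its row in the gene table. Of 20 junction reads into its second exon, 9 (45%, interval 23.1 to 68.5) came from donors 5994 and 8407 bases upstream of the start of the row, 10 came from its first exon and 1 from a donor inside its first intron. No time can be assigned to these start sites with so few reads. Arc had junction reads on 2 splice sites 3 bases apart at the end of 1 intron, with 16 of 25 junction reads (64%, interval 42.5 to 82.0) on the shorter form. The single junction of Btg2 that was tested had 17 reads in CT22 replicate 1 and 2 in CT4 replicate 2, where the gene was highest, so it did not follow the order of the gene.

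Among other immediate-early genes, Sik1 and Fosl2 were highest at CT4, near the fitted peak of Btg2, and passed by DESeq2 and by edgeR without a filter on low counts, but not by edgeR with the filter. Of 35 listed, 34 were tested and 0 passed for a 24-h rhythm by edgeR, with 3 at an unadjusted p under 0.05. Their median fitted ratio was 1.44, against 1.46 for the 8 genes above and 1.23 over all genes tested. This ratio cannot fall below 1 and rises with the spread between libraries, so a higher median need not mean a larger daily change. Fosb, for example, had a ratio of 2.02 at an unadjusted p of 0.505 by edgeR. Sik1, a CREB-regulated kinase that restrains clock resetting by light, had 55.6, 71.5, 39.4, 43.4, 57.2, 83.3, 58.7 and 40.3 CPM in order of collection, so both CT4 libraries were the highest. Its fitted peak was at CT3.15 with a ratio of 1.88 (adjusted p = 0.111 by edgeR, 0.00122 by DESeq2). Fosl2, a partner of JUN proteins, was also highest in both CT4 libraries, at 25.8 and 31.5 CPM, with a peak at CT1.93 and a ratio of 2.23 (adjusted p = 0.214 by edgeR, 0.0111 by DESeq2). Without the filter the adjusted p of edgeR was 3.93e-06 for Sik1 and 0.000163 for Fosl2, among 362 genes that passed. Plk2, an activity-induced kinase, had a fitted peak at CT5.40 and a ratio of 1.42 (adjusted p = 0.409 by edgeR).

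By the ratios of at least 1.3 at CT22 and CT10, 4 of the 34 resembled Egr1 and Arc, namely Fos, Fosb, Junb and Vgf, against 3.25% of all genes tested. By the pair of highest libraries 2 of the 34 did, Jund and Klf2, against 3.70% of all genes tested, and no gene of the list met both. Fos, the best known of them, had 27.2, 14.5, 10.6, 6.39, 19.5, 14.3, 17.1 and 13.5 CPM in order of collection, and Junb 9.67, 3.86, 2.40, 1.73, 2.45, 2.52, 4.22 and 5.46. In both, CT22 replicate 1 was the highest library, but CT10 replicate 2 was not the second. These 6 genes and the comparisons with them were named after their values were seen.

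No gene among the partners, relatives and upstream factors passed in the main tests. The lists held 5 partners of EGR and NR4A proteins, 4 other BTG and TOB genes and 19 kinases and factors that switch on immediate-early genes. All were tested and 0 passed by edgeR with the filter for any comparison. Their median ratios were 1.21, 1.26 and 1.24. Nab1, a corepressor of EGR proteins, had the lowest p of the partners (ratio 1.298, adjusted p = 0.571 by edgeR). The retinoid receptors Rxrg (1.55, 0.663) and Rxra (1.17, 0.765), with which the proteins of Nr4a1 and Nr4a2 form dimers, came next. Tob1 (1.40, adjusted p = 0.602), Btg1 (1.17, 0.779) and Btg3 (1.33, 0.838) were the first of the relatives of Btg2. Creb1, which encodes the factor that binds the CRE, had a ratio of 1.49 with a fitted peak at CT18.8 (adjusted p = 0.349 by edgeR). It passed for the rhythm under an alternative, with no filter or by DESeq2. Mapk3, the kinase ERK1, had a ratio of 1.40 (0.465), and Rps6ka3, a kinase of CREB, a ratio of 1.38 (0.553).

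The 5 genes whose log2 CPM ran closest to the mean of the 8 genes over the 8 libraries, out of 11895 with a mean of at least 5 CPM, were C030034I22Rik (r of 0.93), 6330512M04Rik (0.93), 2410006H16Rik (0.92), Pxmp4 (0.91) and Pcdhb20 (0.91). Pxmp4 is a peroxisomal membrane protein and Pcdhb20 a protocadherin. None is a listed immediate-early gene. The likeness rests on 8 points, with CT22 replicate 1 (mean of 0.57) and CT10 replicate 2 (0.45) at the top.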

How the data were processed

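Whole-number read counts per gene, intron and junction were used as deposited, with the authors' JTK adjusted p-values and lags per the file headers. Alignment used STAR 2.3.0e to mm9, per the submitters' processing notes. How reads were counted and depth equalised is not given in the sources used. Counts were tested with edgeR 4.0.16 in R 4.3.3 (quasi-likelihood, TMM, at least 10 reads in at least 2 libraries, Benjamini-Hochberg at 0.05) on a day-night and a dusk-dawn term, with 5 residual degrees of freedom. Introns of 1 gene symbol were summed per gene, taking the longest of each overlapping group, and introns and junctions used the gene library sizes. Exon lengths were from GENCODE, for 97.2% of tested genes. The members, lists and tests were chosen with earlier results of these data known. Named genes were the 9 members, the 3 lowest p of each list and the 5 most alike. Ratio intervals are exact, for counting error. The scripts were tested on simulated data. DESeq2 1.42.0 and other settings were alternatives. Exon and antisense tables were not used here.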

Additional observations from a re-analysis of the deposited data

How the results depend on the processing

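No paired analysis was possible because replicate numbers stand for the cycle of collection, so the replicate block is the cycle as a term: with it 6 genes passed for dusk against dawn and 0 junctions for the rhythm, and no member passed. Genes passing for the rhythm, day against night, dusk against dawn and the cycle were 362, 137, 239 and 2 with no filter on low counts, where 1 member (Nr4a3) passed for the rhythm and for dusk against dawn. DESeq2 passed 98, 56 and 34 genes for the rhythm, day against night and dusk against dawn. With the oligodendrocyte score as a term 34 genes passed for day against night and 1 for the cycle. Without CT22 replicate 1 and CT10 replicate 2 together, chosen after seeing the data, 11 and 5 passed for the rhythm and day against night. For the introns 23 passed with TMM of that table, 237 with no filter and 100 by DESeq2, and for the junctions 7, 238 and 26. Leaving out each library gave 7 to 43 genes for the rhythm, 4 to 28 for day against night, 3 to 60 for dusk against dawn, 0 to 2 for the cycle, 4 to 69 for introns and 0 to 64 for junctions, with 0 members in each. The cause was not tested. Signs of member differences changed under at least 1 alternative in 7 of 8 genes for day against night, 4 of 8 for dusk against dawn and 7 of 8 for the cycle. Among the other values of single genes, mostly peak-to-trough ratios, which have no sign, 496 stayed on their side of the threshold or within their spread, 7 passed under an alternative and not otherwise (Nr4a3, Sik1, Fosl2 and Creb1, with no filter or by DESeq2), and the log2 range of Egr2 was 3.26 with a prior count of 0.5. Counts of 1 to 14 reads in Egr2 and Egr3 limit what can be said of them.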
